A study of Mus musculus with 8 samples.

Results

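Nuclear 5S ribosomal RNA gene copies were described in mouse oocytes, as all array probe sets whose annotation gives exactly 1 gene symbol starting with n-R5s. There are 135 such copies among 34472 probe sets, and each symbol has 1 probe set. The symbol alone sets who belongs, but the set was chosen by its signals in the contrast of treated with control oocytes, where several copies read lower. That contrast is therefore given for them as a description and carries no test. The other measures given below, which are the level of each copy, the difference between the named series of arrays and the genes of the 5S pathway, did not enter the choice of the set. The lists of pathway genes were, however, chosen with earlier results of these data known.

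The data are 8 Affymetrix MoGene 2.1 ST arrays of total RNA from oocytes of female ICR mice aged 8 weeks on a diet without phyto-oestrogens. The 4 control arrays come from untreated animals. The 4 treated arrays come from animals given bisphenol S (BPS), an analogue of bisphenol A, by oral gavage for 7 days, with a daily dose of 0.1 ng per g of body weight in 50% glycerol with 0.1% DMSO. For the control animals no vehicle is named. The protocols speak of collected ovaries where the tissue field names oocytes and do not say how many animals an array stands for. The authors' deposited table names control and BPS arrays 1 and 2 by numbers and control and BPS arrays 3 and 4 by letters, here called the 2 array series, and what the names stand for is not stated. The labels do not show that the arrays are separate animals, and p-values measure only the spread between these arrays.

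The 5S ribosomal RNA is the small RNA of the large ribosomal subunit. RNA polymerase III transcribes it with TFIIIA, a factor that binds inside the gene, followed by TFIIIC and TFIIIB. The new RNA is held by the La protein, joins the ribosomal proteins RPL5 and RPL11 to form the 5S particle, and is brought to the nucleolus with the assembly factors RPF2 and RRS1. In Xenopus oocytes the 5S RNA is stored in large amounts bound to TFIIIA. In the mouse genome a tandem cluster on chromosome 8 is accompanied by dispersed copies, many of which are annotated as pseudogenes. No sequence of a 5S copy was used here, so whether the probe sets separate the copies was not tested.

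Signals are log2 RMA values, the background level is 4.53, and differences are BPS minus control on the log2 scale with the SE of the limma fit. That background is the 95th percentile of the mean signals of 1450 olfactory and vomeronasal receptor probe sets. Probe sets differ in how strongly they bind, so the signal of a copy says whether it stands above background and not which copy is more abundant. In bulk RNA such as this, fewer cells and less RNA per cell cannot be told apart.

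Most 5S copies were at background, which does not show that 5S RNA was scarce in the oocytes. How well the column purification kept RNAs this short was not tested, for 5S RNA or for the other short RNAs below. Of the 135 copies, 24 (17.8%) had a mean signal above 4.53, against 29.8% of all probe sets, and the median copy stood at 4.16 against 4.18 for all probe sets. A group of 5 copies stood apart, n-R5s193, n-R5s50, n-R5s56, n-R5s48 and n-R5s3, with means over 8 arrays of 8.32, 8.26, 7.59, 7.07 and 5.66. The next 19 copies lay between 4.55 and 5.19, and 31 copies lay within 0.2 of the background level on either side. The lowest copies were n-R5s159 and n-R5s23, at 3.68 and 3.77. The SD between copies within 1 array was 0.76 to 0.96 in control arrays, 0.72 and 0.75 in BPS arrays 1 and 2, and 0.51 and 0.50 in BPS arrays 3 and 4, while the median copy stayed between 4.10 and 4.21 in all 8 arrays. The mean of the 4 brightest copies was 7.98 to 9.41 in control and 6.43 to 7.91 in BPS arrays. This SD by group thus restates the contrast that chose the set and is no separate result.

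**Figure D1:**
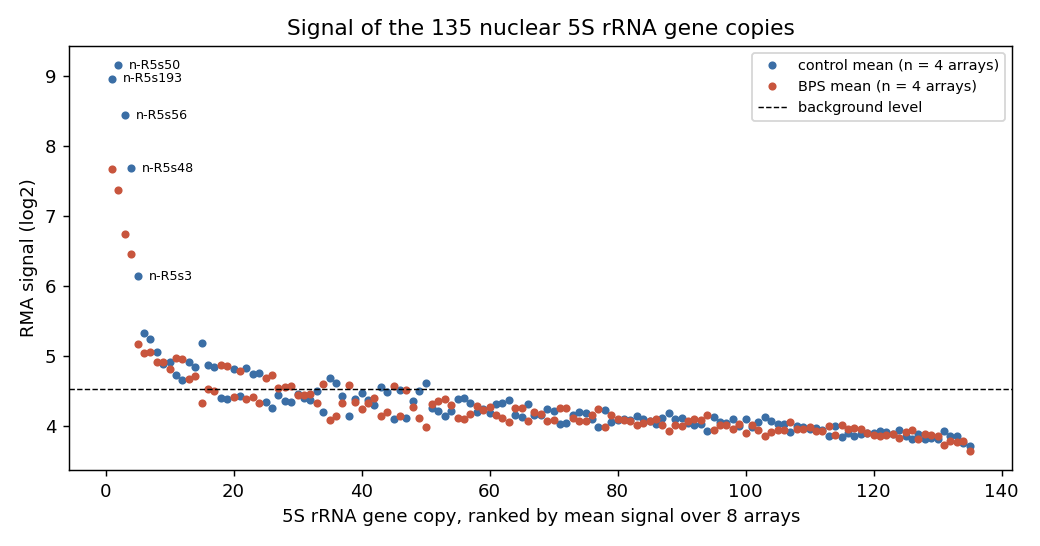
The horizontal axis ranks the 135 copies by mean signal over 8 arrays and the vertical axis gives the RMA signal (log2), with a point for the mean of the 4 control arrays and one for the mean of the 4 BPS arrays. The dashed line is the background level of 4.53, and only 5 copies, all named in the plot, have mean signals above 5.5.

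The brightest copies had the most negative differences. n-R5s193, on chromosome 4, read 8.92, 9.56, 8.39 and 8.98 in control arrays 1 to 4 and 8.11, 8.02, 7.33 and 7.24 in BPS arrays 1 to 4. Every BPS value lay below every control value, and the group means were 8.96 ± 0.48 and 7.67 ± 0.45 (SD, n = 4), a difference of -1.29 ± 0.28 (SE), or 2.44-fold as the ratio of geometric means. n-R5s50, on chromosome 14, read 9.47, 9.80, 8.72 and 8.63 in control arrays and 7.13, 8.85, 7.01 and 6.50 in BPS arrays. BPS array 2 stood above control arrays 3 and 4, so the groups overlap, and the difference was -1.78 ± 0.50 (SE), or 3.44-fold.

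n-R5s56, on chromosome 13, read 8.47, 9.42, 7.73 and 8.13 in control arrays and 7.51, 7.43, 5.69 and 6.33 in BPS arrays. Its groups do not overlap, and the difference was -1.70 ± 0.49 (SE), or 3.24-fold. n-R5s48, the second bright copy on chromosome 14, read 7.49, 8.84, 7.08 and 7.32 in control arrays and 7.04, 7.33, 5.70 and 5.75 in BPS arrays. BPS array 2 again lay above control arrays 3 and 4, and the difference was -1.23 ± 0.50 (SE), or 2.34-fold. In all 4 of these copies control array 2 was the highest of the 8 arrays, and BPS arrays 3 and 4 were the lowest.

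n-R5s3, on chromosome X, read 5.88, 6.22, 5.52 and 6.94 in control arrays and 5.53, 4.77, 5.30 and 5.10 in BPS arrays. Of the BPS arrays only the first reached the control range, just above control array 3, and the difference was -0.97 ± 0.30 (SE), or 1.95-fold. n-R5s29, on chromosome 17 and nearer to background, read 4.92, 4.56, 5.13 and 6.16 in control arrays and 3.77, 4.23, 4.77 and 4.58 in BPS arrays. Here control array 4 was far above the other 3 control arrays, and the groups overlap. The differences of these 6 copies stayed negative after quantile normalization, after median centring and when any 1 array was left out. Over these settings that of n-R5s50 ran from -2.28 to -1.49, that of n-R5s48 from -1.52 to -0.84 and that of n-R5s29 from -1.07 to -0.53, the last without control array 4. A block leaves a difference unchanged in this balanced design, and median centring moves all probe sets alike. The 6 copies were picked as the most negative, so their kept signs are a description and no support.

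**Figure D2:**
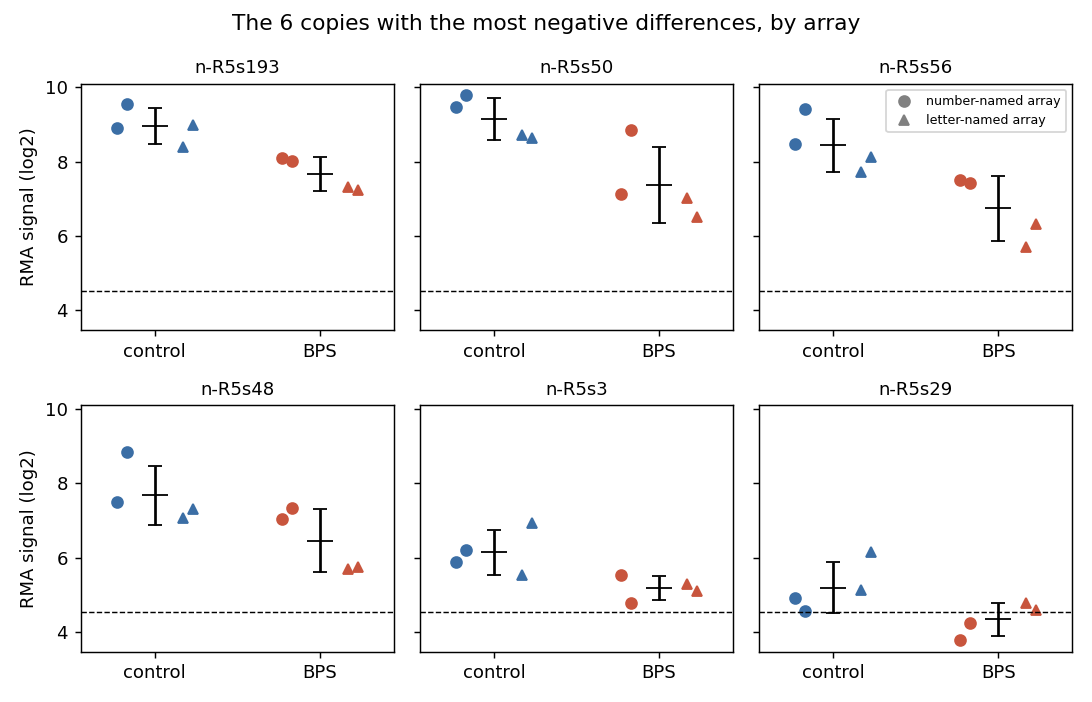
Each panel shows 1 copy, with the RMA signal (log2) of the 4 control and the 4 BPS arrays on the vertical axis, circles for number-named and triangles for letter-named arrays, and a bar for the group mean ± SD (n = 4). The dashed line is the background level of 4.53. In n-R5s193 and n-R5s56 all BPS arrays lie below all control arrays, and in the other 4 panels the groups overlap.

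Across the whole set the shift was small and of both signs. BPS was lower in 81 of 135 copies and higher in 54, with a median difference of -0.04, against 0.02 over all probe sets. Of the 24 copies above background 18 were lower and 6 higher, with a median of -0.31, against a median of 0.12 over the 10266 probe sets above background, of which 2975 were lower. Of these 24 copies 6 were above background through the control mean alone, all lower in BPS, and 3 through the BPS mean alone, all higher, so the difference itself helped to decide who was counted. In the 15 copies with both group means above background 12 were lower and 3 higher. The 111 dimmer copies had a median of -0.02 and ran from -0.62 to 0.48. Without the 5 brightest, the 19 other copies above background split into 13 lower and 6 higher with a median of -0.19. After quantile normalization the medians were -0.06 for all copies and -0.40 for the 24, against 0.00 for all probe sets.

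Several dim copies were higher in BPS. The 6 most positive differences were those of n-R5s33 (0.49), n-R5s165 (0.48), n-R5s195 (0.47), n-R5s173 (0.47), n-R5s63 (0.45) and n-R5s5 (0.41). Of these n-R5s165 and n-R5s173 lay above background in mean signal, both through the BPS mean alone. n-R5s173, on chromosome 5, read 4.56, 4.69, 4.19 and 4.13 in control arrays and 6.15, 4.16, 4.37 and 4.75 in BPS arrays, so BPS array 1 alone was high. With 1 array left out at a time its difference fell as low as 0.03 (without BPS array 1). Without BPS array 1 that of n-R5s5 became 0.09, that of n-R5s63 0.23 and that of n-R5s33 0.32, and without BPS array 2 that of n-R5s195 became 0.21. n-R5s165, on chromosome 6, read 4.55, 4.79, 4.21 and 4.05 in control arrays and 5.19, 5.29, 4.45 and 4.59 in BPS arrays. n-R5s33, on chromosome 16, did not overlap between groups, with 3.98 to 4.31 in control and 4.36 to 5.07 in BPS arrays, all but 2 of these 8 values below background.

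Counted by fold, 8 copies (5.93%) were at least 1.5-fold lower in BPS, among them the 6 just described, and 0 were 1.5-fold higher. Over all probe sets the shares were 0.482% lower and 1.47% higher, and over probe sets above background 1.39% and 4.70%, against 6 of the 24 copies above background (25.0%) lower. Of these 6, n-R5s29 passed the background level through its control arrays alone. Counted by overlap, 5 copies had all BPS values below all control values and 4 had all above, against 1.68% and 4.13% of all probe sets. The 5 are n-R5s193, n-R5s56, n-R5s96, n-R5s175 and n-R5s209, and the 4 are n-R5s67, n-R5s176, n-R5s33 and n-R5s43. Of these n-R5s175, n-R5s209, n-R5s176 and n-R5s43 were named after their values were seen. n-R5s96, on chromosome 8, read 4.61, 4.68, 4.80 and 4.97 in control and 4.35, 4.24, 4.36 and 4.39 in BPS arrays, a small but tight difference of -0.43 ± 0.08 (SE). It lay near background, and passed that level in mean signal through its control arrays alone.

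**Figure D3:**
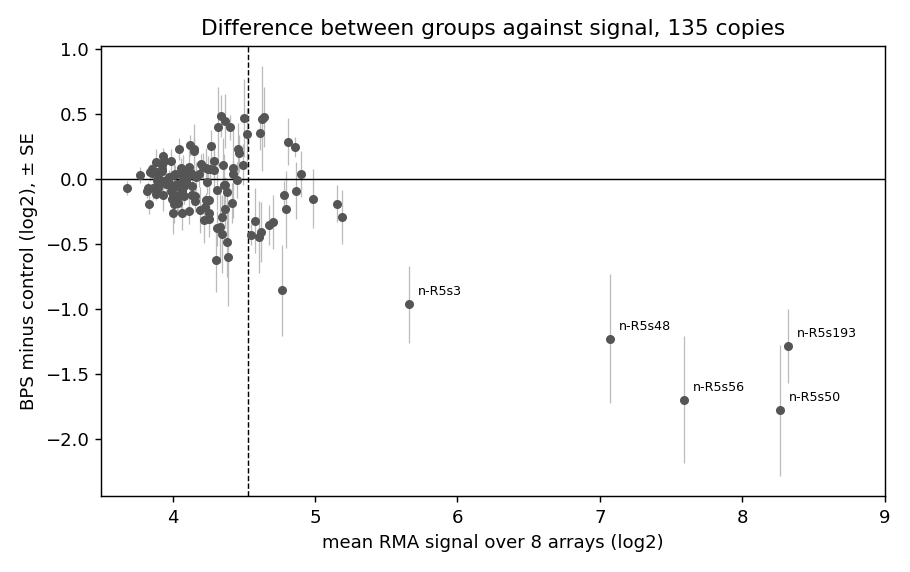
The horizontal axis is the mean RMA signal over 8 arrays (log2) and the vertical axis the difference BPS minus control (log2) of each of the 135 copies, with bars of ± SE. The dashed vertical line is the background level of 4.53. The copies near background scatter on both sides of 0, and the 5 copies with signals above 5.5 lie between -1.78 and -0.96.

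No copy passed an adjusted p under 0.05 in the limma fit without a block, in which 3 of 34472 probe sets (0.0087%) did. In that fit 24 copies had an unadjusted p under 0.05, where 11.1% of all probe sets did. Of these copies 16 were lower and 8 higher, where 3.11% of all probe sets were lower at that level and 7.99% higher. With the array series as a block 6 copies passed, against 3.47% of probe sets. Of these 5 were lower (n-R5s56, n-R5s50, n-R5s27, n-R5s193, n-R5s96), against 0.688%, and 1 was higher (n-R5s165), against 2.78%. With the replicate block 6 passed, against 1.99%, all of them lower, against 0.397% (n-R5s69, n-R5s56, n-R5s50, n-R5s27, n-R5s193, n-R5s96). The authors' deposited table gave 13 copies a p under 0.05, 8 lower and 5 higher in treated arrays, against 5.31% of probe sets, and its smallest FDR of a copy was 0.864. Since this contrast chose the copies, these counts are a record of it and no support.

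Other short RNAs on the same arrays gave the following values. They are to be read beside all probe sets above background, with a median of 0.12 and 29% lower. Of those probe sets 1.39% were at least 1.5-fold lower and 4.7% higher. Of 666 small nuclear RNA probe sets, named from RefSeq biotypes, 174 lay above background, and these had a median difference of -0.16, with 116 lower and 58 higher. Of the 174, 28 (16.1%) were at least 1.5-fold lower and 9 (5.17%) higher, and the median was -0.27 with quantile-normalized values. Small nucleolar RNAs had a median of 0.07 over the 112 of 797 above background, with 54 lower and 58 higher. Of the 112, 3 (2.68%) were at least 1.5-fold lower and 15 (13.4%) higher. Their median lay below that of all probe sets above background, and became -0.05 after quantile normalization. The 75 microRNA probe sets above background, of 500, had a median of 0.00, with 7 lower and 7 higher by 1.5-fold. Small nuclear RNAs above background thus also had more lower than higher values, as the 5S copies did, and the differences between these classes were not tested.

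Each array series holds both groups, so the difference can be read within it. Within the number-named arrays the differences were -1.17 for n-R5s193, -1.65 for n-R5s50, -1.48 for n-R5s56, -0.98 for n-R5s48 and -0.90 for n-R5s3. Within the letter-named arrays they were -1.40, -1.92, -1.92, -1.48 and -1.03. In these 5 copies both BPS arrays of a series lay below both control arrays of that series, in each series. This held for 20 of 135 copies (14.8%), against 5.05% of all probe sets, and the opposite for 11 copies (8.15%), against 12.6%. Both within-series differences were negative in 72 of 135 copies and positive in 51, they had opposite signs in 11, and in 1 copy one of them was 0. Over all probe sets 33.4% were negative in both and 52.5% positive in both.

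The 2 within-series differences are not separate measurements in these files. Over all 34472 probe sets the mean square of their contrast, the interaction of group and series, was 0.00348, while arrays of the same group and series differed with a mean square of 0.0298, which is 8.56 times as much. In the 135 copies these mean squares were 0.00776 and 0.0597, and those of the group and series contrasts 0.253 and 0.193. An interaction that carries only array noise would have a mean square like that of arrays of 1 group and series. In limma the interaction had an unadjusted p under 0.05 in 21 probe sets (0.0609%), none of them a copy, and passed the adjusted threshold in 0. The smallest p among copies were those of n-R5s67 and n-R5s166, both higher in BPS in either series. Neither the labels nor the file headers say how this arose. A like difference in both series is therefore no replicate check, for 5S copies or for any other gene, and a fit without the interaction counts 1 degree of freedom of spread too many. With the interaction as a term, added after this was seen, 3 copies passed for BPS minus control, n-R5s56, n-R5s193 and n-R5s96, against 1.19% of probe sets.

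**Figure D4:**
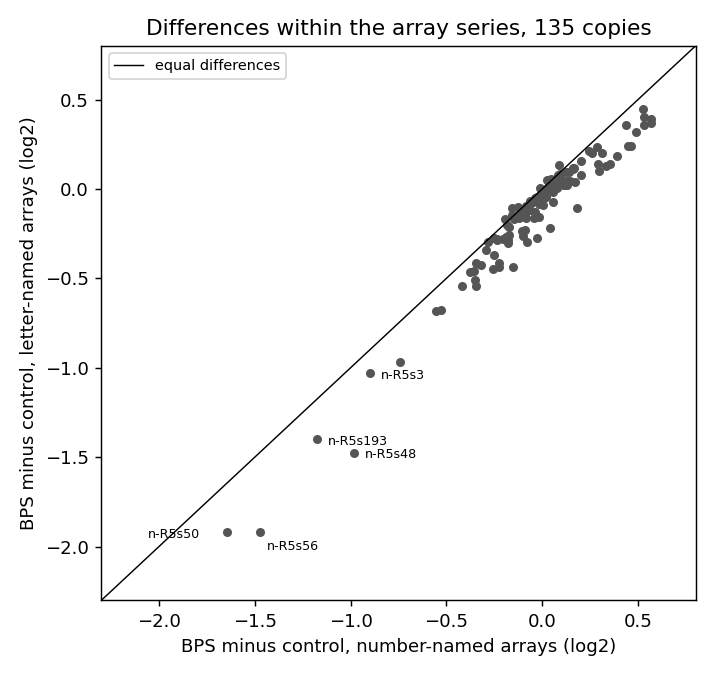
Each point is 1 of the 135 copies, with the difference BPS minus control (log2) of the number-named arrays on the horizontal axis and of the letter-named arrays on the vertical axis. The line marks equal differences. The points follow a narrow band near the line over the whole range, from -1.92 to 0.57.

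The series contrast did not choose the copies and was tested. In limma with the group as a term, 5 of 135 copies (3.70%) differed between letter-named and number-named arrays at an adjusted p under 0.05, against 5.51% of all probe sets, 4 of them lower, against 0.949%, and 1 higher, against 4.56%. Only with both directions pooled is the share called near its background. Over all probe sets 327 calls were lower and 1572 higher, so the few calls among the copies lean the other way. This lean was not tested. n-R5s165 was lower in letter-named arrays, at 4.33 against 4.96 (difference -0.63 ± 0.08 SE, limma adjusted p = 0.00976). n-R5s56 was lower, at 6.97 against 8.21 (-1.24 ± 0.24 SE, limma adjusted p = 0.0313), as were n-R5s48, at 6.46 against 7.67 (-1.21, limma adjusted p = 0.0492), and n-R5s58, at 4.05 against 4.42 (-0.37, limma adjusted p = 0.0440). n-R5s27, on chromosome 17, was higher in letter-named arrays, at 4.64 against 3.97 (0.67, limma adjusted p = 0.0139).

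Other copies did not pass on this contrast. n-R5s193 read 7.98 in letter-named and 8.65 in number-named arrays (limma adjusted p = 0.0686), n-R5s50 7.71 and 8.81 (limma adjusted p = 0.116) and n-R5s3 5.71 and 5.60 (limma adjusted p = 0.862). On the higher side n-R5s204, n-R5s92 and n-R5s28 came closest, with differences of 0.81, 0.66 and 0.27 and limma adjusted p of 0.0577, 0.0565 and 0.0627. The median series difference over the 135 copies was 0.01, with 65 lower and 69 higher in letter-named arrays, and it was 0.03 over all probe sets. Left out 1 at a time, the arrays gave 2 copies past the threshold without BPS array 1, BPS array 4 or control array 2, 3 without BPS array 2 or 3, 5 without control array 1, 6 without control array 4 and 9 without control array 3. With the interaction as a term 2 copies passed, n-R5s165 and n-R5s27, against 2.32% of probe sets. n-R5s165 and n-R5s27 passed in each of these fits, and in those after quantile normalization and median centring. Among probe sets above the median level 11 copies passed, and among those above background 7, a filter that leaves n-R5s27 out.

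Of the 4 brightest copies, 3 deviated together between arrays. After the group means were taken out, n-R5s193, n-R5s56 and n-R5s48 correlated with each other at 0.93 to 0.96 over the 8 arrays, and n-R5s50 with them at 0.66 to 0.78. n-R5s3 correlated with those 4 between -0.35 and 0.32. When the mean of each group within each series was taken out instead, the 3 stayed at 0.74 to 0.81 and n-R5s50 fell to between -0.08 and 0.35. n-R5s3 then correlated with n-R5s193 at 0.78, with n-R5s56 at 0.41, with n-R5s48 at 0.24 and with n-R5s50 at -0.40. In that second step the 2 arrays of a group and series mirror each other, so only 4 values are free and not 8. All these correlations are descriptions over arrays that share their series and their normalization. The other 131 copies had no common sign with the mean of the 4, with a median correlation of -0.05 in the 20 above background and -0.12 in the 111 below it.

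The copies lie on all 21 chromosomes, from 14 on chromosome X and 11 on chromosome 5 to 1 on chromosome Y. A RefSeq gene table on GRCm38.p6, the assembly of the array annotation, named 27 of the 135 copies, 10 as ribosomal RNA and 17 as pseudogenes, 24 of them with a length of 119 bases. The 5 brightest copies are not among these 27, so the table gives them no biotype. Of the 27 only n-R5s173 and n-R5s41, both annotated as pseudogenes, were above background in mean signal. n-R5s173 passed that level through its BPS mean alone and n-R5s41 through its control mean alone. The median level was 4.29 for the 10 and 4.15 for the 17. The same table places 41 n-R5s genes between positions 123538784 and 123622046 of chromosome 8, the tandem cluster, of which 2 are among the 135 copies.

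Both cluster copies were at background. n-R5s136, annotated as ribosomal RNA at 123599859 to 123599979 of chromosome 8, had group means of 4.48 in control and 4.25 in BPS arrays. n-R5s127, annotated as a pseudogene at 123584535 to 123584653, had 4.41 and 4.10. Of the 8 copies assigned to chromosome 8 only n-R5s96 was above background in mean signal, through its control arrays alone. No 2 copies shared all 8 values. 1 copy, n-R5s204 on chromosome 2, had the same 8 values as another row of the table, a probe set without a gene symbol, so that row and the copy are a single measurement listed under 2 identifiers.

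A set of 82 listed genes, together called pathway genes here, was looked up, and 71 were measured. The lists hold genes that make, carry or degrade 5S RNA, p53 genes linked to the 5S particle, other RNA polymerase III transcripts and other ribosomal RNAs. None of the 71 passed the adjusted threshold for BPS minus control in limma without a block. Of the 71, 13 had an unadjusted p under 0.05, all higher in BPS, where 7.99% of all probe sets were higher at that level and 3.11% lower. Mdm4, Rny1 and mt-Rnr2 are among the 13 and do not make, carry or degrade 5S RNA. The listed genes lay above background more often than all probe sets. Among the 10266 probe sets above background, fitted alone, 1668 had an unadjusted p under 0.05 in either direction. Enrichment of the lists was not tested, and the lists were chosen with earlier results of these data known. With the array-series block 6 passed, all higher, Gtf3a, Polr3b, Crcp, Xrn2, Dis3 and Dis3l, against 2.78% of probe sets called higher. That block keeps the small interaction in its measure of spread. With the interaction as a term only Gtf3a passed, against 1.19% of probe sets, and Polr3b, Crcp, Xrn2, Dis3 and Dis3l did not. The differences of the listed genes are to be read beside the median of 0.12 over probe sets above background. Of those probe sets 70.6%, and of all 59.1%, had positive differences. With quantile-normalized values, where the median is 0.00, the difference of Polr3b became 0.12, of Polr3c 0.09, of Ipo5 0.09, of Xrn2 0.31, of Dis3 0.24, of Dis3l 0.20 and of Crcp 0.36, each over 1.5 times smaller than on the deposited scale.

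Gtf3a codes for TFIIIA, the factor specific to 5S genes. It read 5.60, 5.67, 5.62 and 5.47 in control arrays and 6.30, 5.97, 6.19 and 6.39 in BPS arrays. All BPS values lay above all control values, with a difference of 0.62 ± 0.09 (SE) and 0.46 after quantile normalization. The limma adjusted p was 0.162 without a block, 0.0215 with the array-series block and 0.0617 with the replicate block, and Gtf3a was the 1 listed gene that passed with the interaction as a term. It spans 146948657 to 146955614 of chromosome 5 on GRCm38.p6. Of the 11 genes of TFIIIA, TFIIIC, TFIIIB and Maf1, 8 had positive and 3 negative differences, where 70.6% of probe sets above background were positive. Their median was 0.08, and 0.03 with quantile-normalized values. Tbp, the TATA-binding subunit of TFIIIB, differed by 0.36 ± 0.09 (SE, limma adjusted p = 0.359), and Maf1, a repressor of RNA polymerase III, lay below background and differed by -0.02.

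The 18 subunits of RNA polymerase III had a median difference of 0.10, which was 0.02 with quantile-normalized values. Of their differences 13 were positive and 5 negative, where 70.6% of probe sets above background were positive. Polr3c, a subunit of the initiation subcomplex, differed by 0.23 ± 0.10 (SE, limma adjusted p = 0.434). Polr3b, which codes for the second-largest subunit, differed by 0.27 ± 0.11 and Crcp, another subunit gene, by 0.54 ± 0.23 (SE), with limma adjusted p of 0.0409 and 0.0378 under the array-series block. Polr3a, the gene of the largest subunit, stood at 8.00 ± 0.30 in control and 8.07 ± 0.29 in BPS arrays (SD, n = 4). Of the paralogous pair Polr3g and Polr3gl, Polr3g lay below background with a difference of 0.20 and Polr3gl just above it with one of 0.00.

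Genes of the 5S particle were mostly dim on this array. Rpl5 and Rpl11, the ribosomal proteins bound to 5S RNA, had mean signals of 4.00 and 3.92, below background, and differed by -0.09 and -0.03, which does not show that they were unchanged. In this list of 9 measured genes 4 lay above background, the median was 0.01 and Ipo5, an importin, differed by 0.26 ± 0.09 (SE, limma adjusted p = 0.403). Mdm2, the p53 ligase that the free 5S particle binds, stood at 5.77 ± 0.05 and 5.79 ± 0.10 (SD, n = 4), a difference that became -0.14 after quantile normalization. Its relative Mdm4 differed by 0.29 ± 0.10 (SE, limma adjusted p = 0.398), and Cdkn1a, a p53 target below background, by -0.12.

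In the list of chaperones and decay factors 16 of 20 genes had positive differences, where 70.6% of probe sets above background did. The median was 0.14, and 0.04 with quantile-normalized values. Xrn2, the nuclear 5′ to 3′ exonuclease, read 5.72, 5.76, 5.61 and 5.90 in control arrays and 6.20, 6.06, 6.28 and 6.37 in BPS arrays. The groups do not overlap, and its difference of 0.48 ± 0.08 (SE) had a limma adjusted p of 0.214 without a block, 0.0258 with the array-series block and 0.0480 with the replicate block. Dis3l, a cytoplasmic exosome nuclease, differed by 0.34 ± 0.10 and Dis3, its nuclear counterpart, by 0.37 ± 0.17 (SE), with limma adjusted p of 0.383 and 0.466 without a block. Dis3 also passed with the replicate block (limma adjusted p = 0.0491). Ssb, which codes for La, was bright, at 9.27 ± 0.15 in control and 9.16 ± 0.05 in BPS arrays (SD, n = 4). Trove2, the gene of the Ro protein, which binds faulty 5S RNA in Xenopus, lay below background at 4.05 and differed by -0.01.

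In a list of 11 other RNA polymerase III products, the 6 that were measured had positive differences or differences near 0. These 6 do not stand for all products of this polymerase. Of the 6 transcripts 4 had positive differences, Rny1, Rny3, Rpph1 and Rn7sk, and these 4 lay above background in mean signal, Rny1 only through its BPS arrays. The other 2 lay below background, with differences of -0.08 each. Rny1, a Y RNA bound by the Ro protein, read 3.72, 4.44, 4.49 and 4.31 in control arrays and 4.94, 4.62, 4.77 and 5.53 in BPS arrays. Its groups do not overlap, with a difference of 0.73 ± 0.23 (SE, limma adjusted p = 0.389), and Rny3, a second Y RNA, differed by 0.64 ± 0.36 with overlap (limma adjusted p = 0.520), which became 0.30 without BPS array 4. Rn7sk, the 7SK RNA that holds the elongation factor P-TEFb, stood at 10.83 ± 0.15 and 10.88 ± 0.13 (SD, n = 4). The mitochondrial ribosomal RNAs mt-Rnr1 and mt-Rnr2 differed by 0.10 ± 0.06 and 0.19 ± 0.06 (SE), with limma adjusted p of 0.554 and 0.402.

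**Figure D5:**
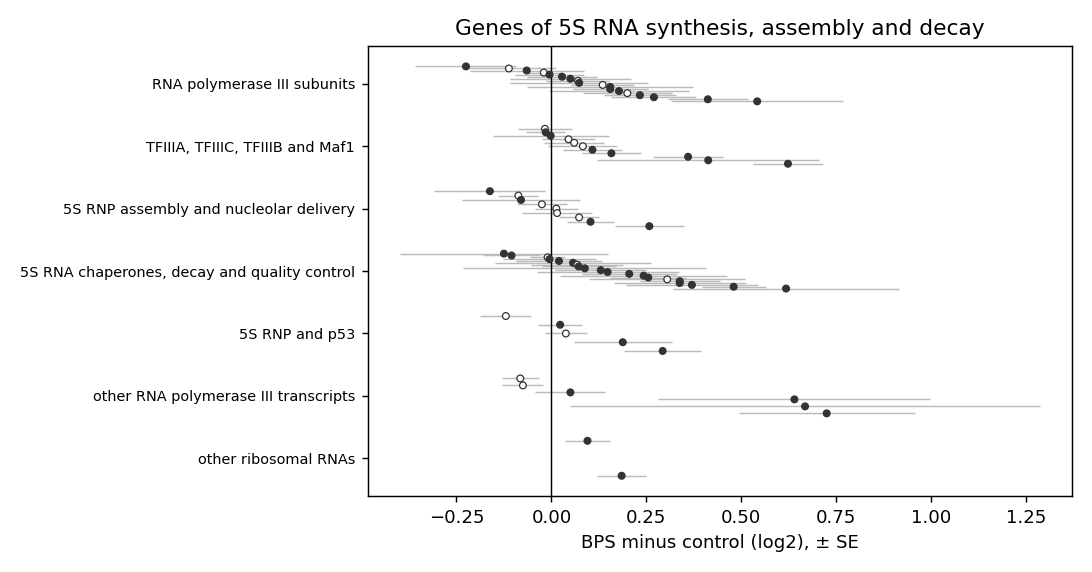
Each point is 1 of 71 measured genes in 7 lists, with the difference BPS minus control (log2) on the horizontal axis and bars of ± SE. Filled points lie above the background level of 4.53 in mean signal and open points below it. Of the listed genes, the RNA polymerase III transcripts Rny1 (0.73), Rpph1 (0.67, and 0.16 without control array 1) and Rny3 (0.64, and 0.30 without BPS array 4) lie farthest to the right.

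The labelled cell type was borne out by its markers. All 12 oocyte markers lay above background with a median level of 10.05, and their per-array medians were 9.96 to 10.14 in control and 10.02 to 10.11 in BPS arrays. Of 9 granulosa and cumulus cell markers 2 lay above background, Inha and Nr5a2, with per-array medians of 4.03 to 4.19 in control and 4.07 to 4.26 in BPS arrays. None of 7 theca and stroma, 3 erythroid and 4 leukocyte markers did. Array medians lay between 4.15 and 4.21 log2 units, arrays correlated at 0.941 to 0.982. Precision is limited by how few arrays there are.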

How the data were processed

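Per the labels' protocols, RNA purified on RNeasy MinElute columns, with an integrity number above 8, was measured on 8 arrays. The authors summarised probe sets at gene level with RMA and annotation release 36 on mm10, per the file headers, and deposited log2 signals with 2 decimals. The Transcriptome Analysis Console was used, per the submitters' processing notes. Their deposited table also holds p-values, FDR values and a signed fold from a test not given in the sources used here. 4 of the p-values carry a decimal comma. The deposited series table and workbook hold equal values, which gave each array its series name.

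All 34472 probe sets were fitted in limma 3.58.1 (lmFit, eBayes; R 4.3.3), with two-sided p-values adjusted over the whole table (Benjamini-Hochberg) and a threshold of 0.05. The main fit had the group alone, the series contrast had group and series, and the interaction fit both and their product. The fits were run on simulated data with independent noise and known changes added to some probe sets. Those data lacked the small interaction seen here, so they do not check how the fits count spread. Quantile normalization, median centring, level filters, identical rows counted once, blocks and leaving out arrays were alternatives. 962 probe sets share all 8 values with another and were kept. Pathway genes used the brightest probe set of a symbol. Summaries and plots used Python 3.11.15, pandas 2.3.3 and matplotlib 3.10.9.

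Named copies are the 6 lowest and 6 highest differences, the 4 brightest, the 2 dimmest, the 4 smallest p per direction on the series contrast, the 2 smallest on the interaction, n-R5s56, n-R5s193 and n-R5s96. From each list the 2 smallest p and 10 set genes are named, except 1 gene that is not reported here. n-R5s69, n-R5s41, the cluster copies, Polr3b, Crcp, Dis3, Rn7sk and Rpph1 were named after their values were seen. Members and lists were chosen with earlier results of these data known.

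The titles number arrays 1 to 4 in both groups. Over probe sets above the median level, the deviations from the group mean of 2 arrays with the same number correlated at 0.519, 0.383, 0.173 and 0.362. All 4 exceed 0.1, the rule set for treating numbers as pairs, although the labels do not say what a number shares and arrays of other numbers in the same series correlated at 0.305 to 0.493.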

Additional observations from a re-analysis of the deposited data

Results flagged for a closer look

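In 5 of 88 groups of 4 arrays checked for named genes, 1 array stood far from the other 3, by the gap to its nearest neighbour as a share of the group's range. Chance gives about 1 in 20 such groups. In n-R5s5 control array 4 was the lowest (share 0.951), in n-R5s63 BPS array 1 was the highest (0.832), and in n-R5s195 control array 4 was the lowest (0.832) and BPS array 2 the highest (0.852). These 3 copies are among the 6 most positive differences and lie below background in mean signal. In Trove2, also below background, BPS array 4 was the highest (0.833).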

How the results depend on the processing

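Without a block 0 copies passed for BPS minus control, and this count was 0 under every alternative run except the array-series block (6), the replicate block (6) and the interaction term (3), the last chosen after seeing the data. The median difference of the 135 copies, -0.04, was -0.31 among copies above background (the same copies that the background filter keeps), -0.10 among those above the median level, and -0.06 to -0.03 when 1 array was left out. The series contrast gave 5 copies, 11 with probe sets above the median level, 2 with the interaction term and 2 to 9 with 1 array left out. The interaction gave 0 copies in the 14 alternatives run, and with a component this small that says nothing about stability. It could be fitted with the replicate block, but the series contrast could not, since each number lies in 1 series. The pathway genes gave 0, 6 with the array-series block, 2 with the replicate block (Xrn2 and Dis3), 1 with the interaction term (Gtf3a) and 0 when any 1 array was left out. The replicate block changed no other call. Among named copies the sign of the difference turned in n-R5s204 when 1 of 4 arrays was left out and in n-R5s58 without control array 4, both near 0.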

Other observations

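2 further noncoding RNAs were looked at after their values were seen. n-R5-8s1, the nuclear 5.8S ribosomal RNA gene, was below background, with 4.09 ± 0.17 in control and 4.36 ± 0.19 in BPS arrays (SD, n = 4) and a difference of 0.26 ± 0.12 (SE, limma adjusted p = 0.455). Rpph1, the RNA of RNase P, read 6.17, 7.95, 8.92 and 7.77 in control arrays and 7.15, 8.28, 8.96 and 9.09 in BPS arrays, a spread within the control group of 1.14 (SD, n = 4) that exceeded its difference of 0.67 between groups. Without control array 1 the difference was 0.16.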
